A study of Oryza sativa with 3 samples.

Results

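Cyclins, cyclin-dependent kinases (CDKs), CDK inhibitors and kinesins were examined in leaves of rice (Oryza sativa) cultivar Kitaake. The 3 samples formed 1 group: leaf tissue harvested from plants kept for 6 weeks in a greenhouse, grown at the same time, with 1 Affymetrix rice array for each replicate. No treatment, genotype or second tissue was measured, so no contrast between conditions exists, and the number of plants behind each replicate is not stated. The spread between replicates may therefore be partly technical, and the number of arrays limits its precision. Members were the genes whose symbol or synonym carries a cyclin (CYC), CDK, KRP, E2F, CKB or KIN name: 89 of 57381 probe sets, for 73 of 17905 genes with 1 symbol. The names came from a RefSeq gene table for 85 genes, of which 12 (among them CDKB1-1, CYCA3-1 and CYCB1-5) matched no probe set here and were not analysed. No E2F or CKB gene was matched.

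A plant cell divides when a CDK, a protein kinase that is inactive alone, is switched on by a cyclin partner. D-type cyclins with CDKA carry the cell from G1 into S phase by acting on the retinoblastoma-related protein, and KRP proteins inhibit these kinases. A-type and B-type cyclins with CDKA and the plant-specific CDKB drive S phase, G2 and mitosis, and kinesins, motor proteins that walk on microtubules, build the spindle and the phragmoplast. Other CDKs and cyclins work outside the division cycle: they activate other CDKs, phosphorylate RNA polymerase II, or act with the splicing machinery. In a grass leaf, cells divide mainly near the leaf base and in the youngest leaves.

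Values are log2 signals per probe set, given for replicates 1, 2 and 3 in that order or as mean ± SD (n = 3 arrays). Background was taken as the 95th percentile of 64 probe sets for foreign reporter genes on the same array, at 5.64, 5.60 and 5.77. Probes differ in how strongly they bind, so genes were compared with this bound and not with each other. The labelled tissue was checked against markers. All 5 leaf mesophyll genes that could be measured, of 8 listed, lay between 13.26 and 14.66. Of 4 measured shoot meristem genes, the homeobox gene OSH1 (3.19, 3.19 and 3.37) and OSH71 (4.17, 3.92 and 4.05) lay below background, while FON1 (9.11, 8.79 and 8.62) and WOX4 (6.16, 6.13 and 6.01) lay above it. Of 4 root genes, LSI1 (9.24, 9.11 and 8.94) and IRT1 (7.51, 8.44 and 7.91) were above background on every array. LSI2 and NAS1 were below it. Of 3 measured anther genes, MSP1 (8.46, 8.23 and 8.08) was above background on every array, while TDR and CYP703A3 were below it. Over all genes, 74.3% were above background on every array.

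Few genes of the mitotic class gave signal above background, and the shares in the other classes lay near or under that of all genes. Of 15 mitotic-class genes (A-type and B-type cyclins, CDKB and the kinesin families 5, 10 and 12), 2 were above background on all 3 arrays, 1 on some arrays and 12 on none. Of 31 non-mitotic cyclins, CDKs and inhibitors, 21 were above background on all arrays and 8 on none. Of 26 kinesins of other families, 15 were above on all arrays and 11 on none. Over all genes the share above background on every array was 74.3%. The non-mitotic cyclins, CDKs and inhibitors (67.7%) lay near that share. The other kinesins (57.7%) and the mitotic class (13.3%) lay under it. Of all 17905 genes, 4097 were above background on no array. The median of the mean signals was 4.45 in the mitotic class, 7.57 in the non-mitotic core, 6.22 in the other kinesins and 8.11 over all genes. The medians describe probe sets and not amounts of transcript, and that of the mitotic class lies below the bound. There is no test, since the design holds 1 group. In leaf tissue, fewer dividing cells, less of a transcript per cell and probe sets that bind poorly cannot be told apart. The sample titles name neither the leaf taken nor the part of it. Apart from CYCB2-2, each mitotic-class gene was measured by a single probe set.

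**Figure D1:**
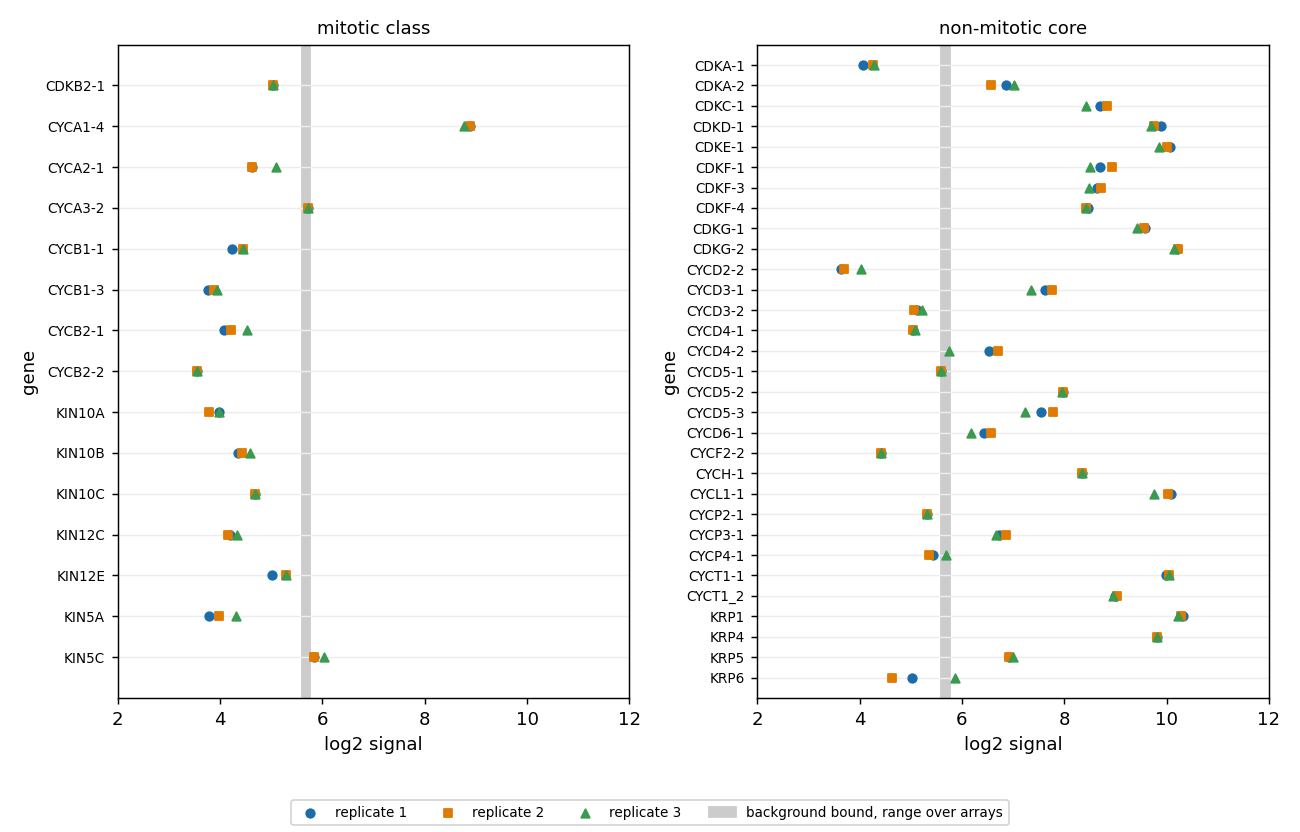
Log2 signal (horizontal axis) of each gene of the mitotic class (left) and of the non-mitotic core (right), with 1 point for each array; the grey band is the range of the background bound over the arrays. In the mitotic class CYCA1-4 stands clear of the band and KIN5C lies just above it, while 21 of the 31 non-mitotic genes lie to its right on all arrays.

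All 4 measured B-type cyclins, the partners that activate CDKs at the entry into mitosis, were below background on every array. Over all genes, 4097 of 17905 were above background on no array. CYCB1-1 (LOC4327547) had signals of 4.23, 4.44 and 4.46, and CYCB1-3 (LOC4326914) had 3.77, 3.89 and 3.93. CYCB2-1 (LOC4336670) had 4.08, 4.21 and 4.53. CYCB2-2 (LOC4342121) was at 3.55 on all arrays, and its second probe set was also below background, at 3.67 ± 0.01. The synonyms overlap, since LOC4326914 also carries the name CycB1-1 in the gene table. For these 4 genes the arrays thus give no level and, since probes differ in how strongly they bind, no upper limit either. The mitotic kinase CDKB2-1 (LOC4346016), a CDK found only in plants whose transcript peaks from G2 to mitosis, was likewise below background, at 5.04 on every array.

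The A-type cyclins, which act from S phase to early mitosis, differed among themselves. CYCA1-4 (LOC4338177) had 8.89, 8.88 and 8.78, a mean of 8.85 ± 0.06, and was the member of the mitotic class that lay far above the bound on every array. CYCA3-2 (LOC4352642) was at 5.73 on all arrays, which is above the bound in replicates 1 and 2 and below it in replicate 3. CYCA2-1 (LOC4352280) was below background, at 4.63 in replicates 1 and 2 and 5.09 in replicate 3. Each of the 3 is represented by a single probe set, so no second probe set was there to check the signal of CYCA1-4.

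Of the 7 mitotic kinesins, 6 were below background on every array, against 4097 of 17905 over all genes. KIN5C (LOC9271005), of the family that slides spindle microtubules apart, was at 5.83, 5.83 and 6.02, just above the bound on each array. Its family member KIN5A (LOC9268593) had 3.79, 3.98 and 4.31. KIN10A (LOC4331094), the STD1 gene whose loss dwarfs rice through failed cell division, had 3.98, 3.79 and 3.98. KIN10B and KIN10C had means of 4.45 ± 0.12 and 4.69 ± 0.00. The KIN-12 kinesins, known in Arabidopsis for keeping the phragmoplast in order, were represented by KIN12C at 4.22 ± 0.09 and KIN12E at 5.19 ± 0.16. KIN7A (LOC4323990), the rice NACK kinesin of cell plate formation, belongs by its family to the other kinesins, and it too was below background, at 4.69, 4.60 and 4.98.

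The genes for entry into the cycle were split. Of 15 CDKA, CYCD and KRP genes, 8 (53.3%) were above background on all arrays, against the 74.3% of all genes. Another 2 were above it on some arrays and 5 on none. Among the D-type cyclins CYCD3-1 (LOC4340499) had 7.62, 7.76 and 7.35, CYCD5-3 (LOC4331985) had 7.55, 7.77 and 7.24, and CYCD5-2 (LOC4352668) had 7.98, 7.98 and 7.96, with a second probe set below background at 4.42 on every array. CYCD6-1 was also above the bound, at 6.39 ± 0.20. CYCD2-2, CYCD3-2, CYCD4-1 and CYCD5-1 were below it, with means of 3.79, 5.13, 5.06 and 5.60. CYCD4-2 (LOC4345844) crossed it, at 6.53 and 6.70 in replicates 1 and 2 and 5.75 in replicate 3.

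Of 4 measured KRP inhibitors 3 lay above background on all arrays, a share near the 74.3% of all genes. KRP2 and KRP3 matched no probe set. KRP1 (LOC4330816) had 10.32, 10.28 and 10.22, KRP4 (LOC4348872) was at 9.81 on every array, and KRP5 had 6.94 ± 0.05. These genes encode proteins that bind CDK and cyclin complexes and hold the kinase inactive. KRP6 (LOC4347280) was the exception, at 5.02 and 4.63 in replicates 1 and 2, both below the bound, and 5.87 in replicate 3. A second KRP4 probe set was below background, at 4.20, 4.10 and 5.06, so the signal of KRP4 rests on the brighter of 2 probe sets.

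The core kinase CDKA, which carries the PSTAIRE cyclin-binding helix and serves both G1 and mitosis, was measured by probe sets that disagreed. For CDKA-1 (LOC4331415) the probe set chosen by the rule was below background, at 4.06, 4.26 and 4.28. Its other probe set, whose _s_at suffix marks probes that can match several transcripts, read 9.27, 9.36 and 9.14. CDKA-2 (LOC4328135) was above background with each of 3 probe sets, at means of 6.82 ± 0.23, 6.28 ± 0.20 and, for one of the _x_at kind, 8.16 ± 0.10. Whether the brighter CDKA probe sets read one gene or its paralog cannot be told from these values.

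**Figure D2:**
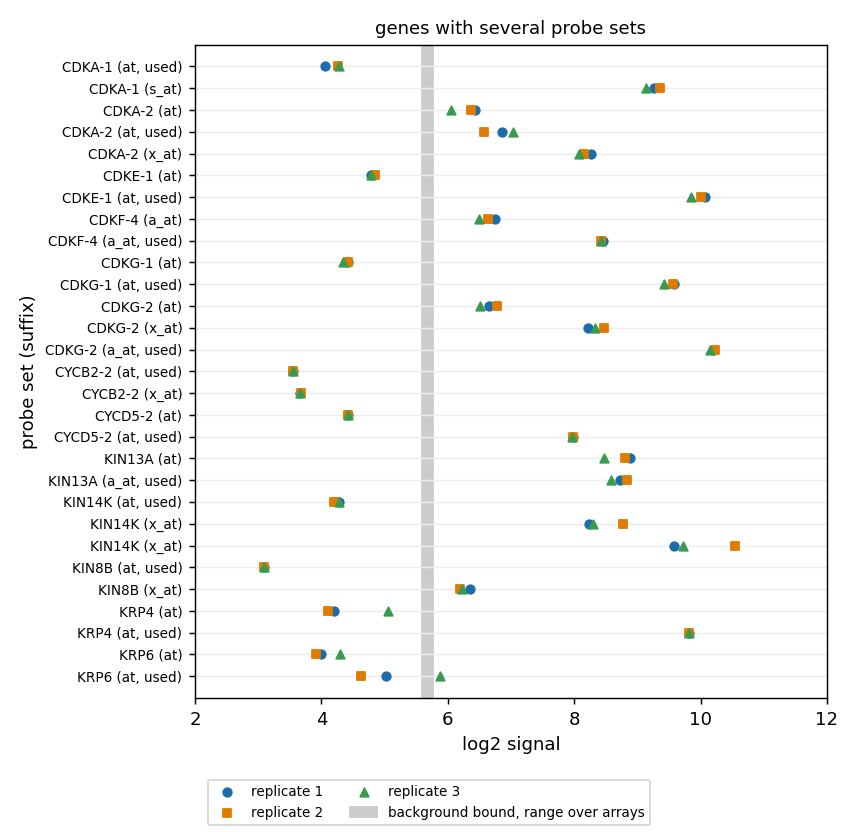
Log2 signal of each probe set of the 13 member genes with several, with 1 point for each array; each line names the gene and the suffix of the probe set, "used" marks the one that represents the gene, and the grey band is the background bound. Probe sets of 7 genes, CDKA-1, CDKE-1, CDKG-1, CYCD5-2, KIN14K, KIN8B and KRP4, lie on both sides of the band.

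Several member genes had probe sets that disagreed, and the share over all genes with several probe sets was not computed. Of 13 member genes with several probe sets, 7 had some above the bound on every array and some not, 4 had all above it, and 2, CYCB2-2 and KRP6, had none above it on every array. Counted as genes, 39 of 73 members (53.4%) were above background on all arrays, against the 74.3% of all genes. Counted as probe sets, 49 of 89 were, against 71.1% of all probe sets with 1 gene symbol.

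The families CDKC to CDKG, CYCH, CYCL and CYCT include genes that activate other CDKs or act in transcription and splicing. By the probe set used, 12 of 12 of their measured genes were above background on all arrays, against the 74.3% of all genes. However, CDKE-1 and CDKG-1 each had another probe set below background. CDKD-1 (LOC4338689), the rice CDK-activating kinase also known as R2, had 9.88, 9.75 and 9.69. Its cyclin partner CYCH-1 (LOC4334040) was at 8.34 on every array. CDKF-1 (LOC4340934), whose Arabidopsis counterpart activates CDKD kinases, had 8.70, 8.92 and 8.50. The other CDKF genes, CDKF-3 and CDKF-4, were at 8.62 ± 0.12 and 8.43 ± 0.02.

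Kinases and cyclins tied to RNA polymerase II gave signal on every array as well. CDKC-1 (LOC4338674) had 8.70, 8.83 and 8.42. It belongs to the family that pairs with T-type cyclins in transcript elongation. The T-type cyclins were at 9.99, 10.05 and 10.05 for the gene listed as CYCT1-1 and CycT1;4 (LOC4352229) and at 8.99, 9.04 and 8.95 for CYCT1_2 (LOC4329229). CDKE-1 (LOC4349519), of the Mediator kinase family, had 10.07, 10.01 and 9.84, with a second probe set below background at 4.80 ± 0.03. In the splicing-related families CDKG-1 (LOC4329899) had 9.57, 9.57 and 9.42, CDKG-2 (LOC4336224) had 10.20, 10.23 and 10.15, and the L-type cyclin CYCL1-1 (LOC4325450) had 10.08, 10.02 and 9.74. A second CDKG-1 probe set was below background, at 4.40 ± 0.05, and the other CDKG-2 probe sets were above it, at 8.34 ± 0.13 and 6.64 ± 0.13.

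Of the 4 remaining cyclins 1 was above background on all arrays, against the 74.3% of all genes. CYCP3-1 (LOC4338711) had 6.73, 6.85 and 6.66. P-type cyclins resemble the yeast phosphate-signalling cyclin PHO80. CYCP2-1 was below background at 5.32 on all arrays, CYCP4-1 (LOC4349405) at 5.44, 5.36 and 5.69, and the F-type cyclin CYCF2-2 (LOC4329915) at 4.42 on all arrays.

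The kinesins outside the mitotic families covered both sides of the bound. KIN14L (LOC4340497), of the minus-end-directed KIN-14 family, had 10.46, 10.30 and 10.33. KIN4A, the GDD1 gene that in rice affects gibberellin level and cell wall structure, had 8.93, 8.64 and 9.02. KIN13A (LOC4337845), the SRS3 gene of rice grain length, had 8.73, 8.84 and 8.58, and its other probe set gave the same mean of 8.72. KIN4A and KIN13A are known from rice mutants for effects on cell and organ growth.

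Further kinesins were likewise above background on every array. KIN14I, listed as KCBP, the calmodulin-binding kinesin, had 8.16, 8.07 and 7.63. KIN7F (LOC4336528) had 8.91, 8.90 and 8.76, and KIN13B, measured by an _x_at probe set alone, had 6.82, 6.90 and 7.18. KIN7C, KIN14A, KIN14H and KIN14M lay between 7.05 and 8.36 in mean. KIN7J, KIN14N and KIN14O had means of 6.50, 6.42 and 6.61. KIN7D and KIN7K were close to the bound, at 5.99 ± 0.06 and 6.02 ± 0.19.

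Below background on all arrays were 11 of these kinesins. KIN1 (LOC4344521), the PSS1 gene needed for meiosis and pollen fertility in rice, was at 4.28 on every array, measured by an _s_at probe set alone. KIN14Q, the OsKCH1 kinesin that also binds actin, had 3.96, 3.76 and 3.76. KIN8B (LOC4334272) was at 3.09 on every array, with an _x_at probe set at 6.26 ± 0.08. KIN14K was at 4.28, 4.20 and 4.28 by the probe set used. Its 2 _x_at probe sets were above background on all arrays, at 9.57, 10.55 and 9.72 and at 8.23, 8.78 and 8.29. Both were highest in replicate 2. KIN14C (LOC4326167), KIN14R (LOC4352796) and KIN7L (LOC4350714) had means of 4.92, 5.16 and 5.17. KIN14B, KIN14E and KIN14F had means of 3.28, 3.73 and 4.16. KIN17, matched by its name alone, is in mammals a zinc-finger protein that binds nucleic acid and no kinesin, so it was kept apart, at 10.10, 10.03 and 9.92.

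**Figure D3:**
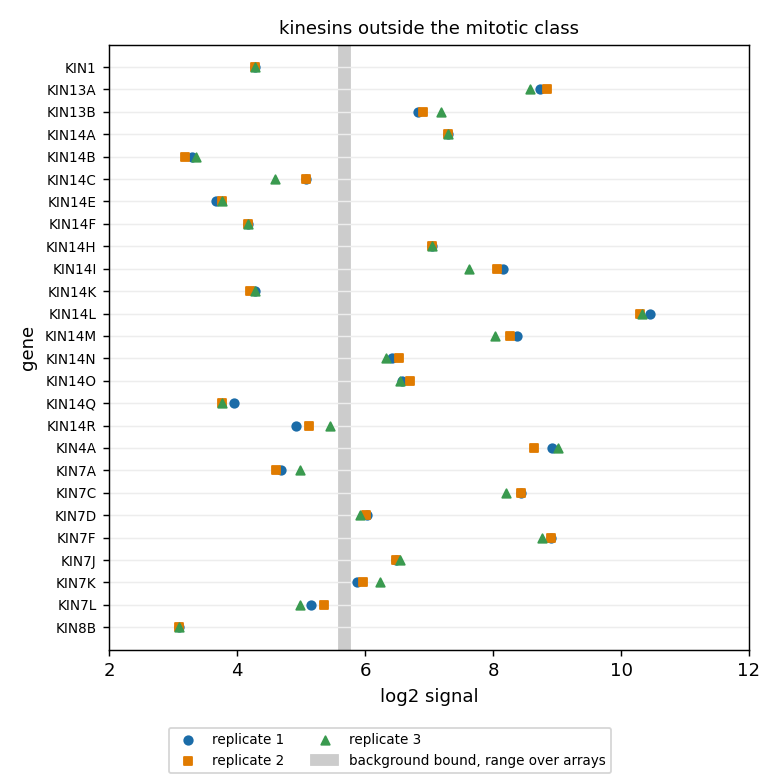
Log2 signal of the 26 kinesins outside the mitotic class, with 1 point for each array and the background bound as a grey band. In 15 genes all 3 points lie to the right of the band, with KIN7D and KIN7K nearest to it, and in 11 they lie to its left.

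Partner genes of the cell cycle, from a list of checkpoint, licensing and inhibitor names, lay on both sides of the bound as well. Of 21 measured genes 8 were above background on all arrays, against the 74.3% of all genes, 1 on some and 12 on none, with WEE1 and ORC6 not analysed. Of the 8 genes with an MCM name, a family that includes the subunits of the replicative helicase, 7 were below background on every array. Of 5 origin recognition (ORC) genes 4 were, and over all genes 4097 of 17905 were. MCM7 had 3.82, 3.98 and 4.44, and MCM8 had 2.88, 2.77 and 3.10. The exceptions were MCM9 at 7.79 ± 0.01 and ORC2 at 8.47 ± 0.11. ORC4, below background by the probe set used, was above it on all arrays by an _s_at probe set (6.27 ± 0.21), and 1 of the 3 MCM9 probe sets fell below the bound in replicate 3.

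Of the 8 other partner genes 6 were above background on every array, a share near the 74.3% of all genes. CKS1, a small protein that docks on CDKs, had 10.09, 10.33 and 10.25. The retinoblastoma-related RBR2 had 9.38, 9.43 and 9.32, while RBR1 was below background at 3.56 ± 0.14 by probe sets of the _s_at kind. The sliding clamp PCNA, used in both replication and repair, had 8.81, 8.97 and 8.85, and the centromeric histone CENH3 had 6.97, 7.34 and 6.97. MYB3R-2, a MYB factor that in rice binds the mitosis-specific activator element, had 8.74, 8.84 and 8.53. EL2, a rice CDK inhibitor of the SIAMESE family, had 7.15 ± 0.16, and SMR1, whose role was not checked, had 5.86, 5.96 and 5.58.

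**Figure D4:**
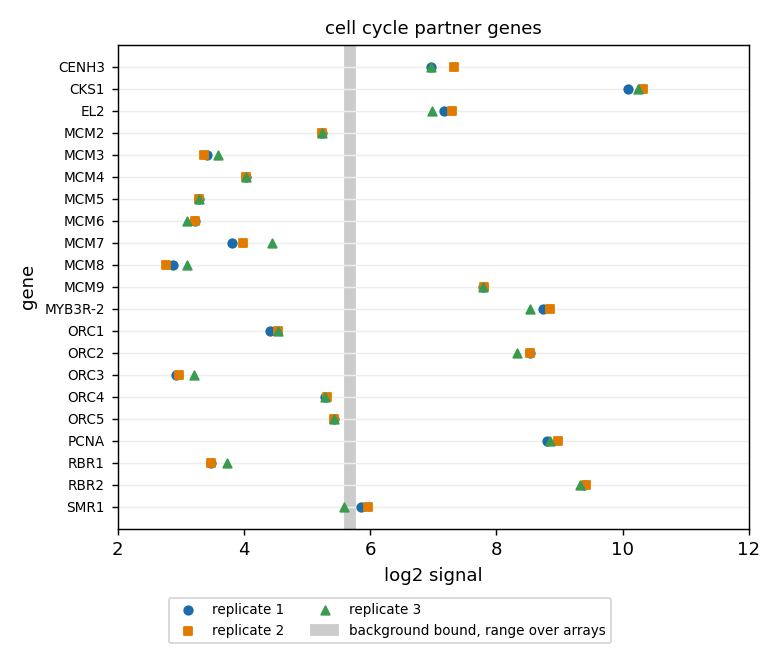
Log2 signal of the 21 partner genes, with 1 point for each array and the background bound as a grey band. CKS1, RBR2, PCNA, MYB3R-2, ORC2, MCM9, EL2 and CENH3 lie to the right of the band on all arrays, and 7 of the 8 MCM genes lie to its left.

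Replicates differed little for most members. The median SD was 0.10 over the 73 genes and 0.08 over all genes. A range of at least 2-fold over the arrays was seen for 1 member, KRP6, against 1% of all genes, and 2 of its 3 values were below background, so no fold is given. CYCD4-2 was above the bound in replicates 1 and 2 and below it in replicate 3, so its range is not given either. The same value on all arrays, within 1e-09, occurred in 14 of 73 members (19.2%) and in 14.3% of all genes, so an SD of 0.00 does not mean an exact measurement.

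Replicate 3 was set apart in opposite ways for bright and dim genes. Of the 39 members above background on every array, 25 were lowest in replicate 3, and 7 were highest there, against 60.1% and 11.4% of all genes above background, and the median difference of replicate 3 from the mean of the others was -0.11, against -0.09. Of the 31 members below background on every array, 15 were highest in replicate 3 and 2 were lowest there, against 36% and 14.2% of all such genes, with medians of 0.09 and 0.00. The whole array showed the same shape, with a 75th percentile of 7.79 in replicate 3 against 7.91 and 7.93, and a 25th percentile of 4.30 against 4.25 in both others. Among all genes the median difference reached -0.16 in the tenth of genes with mean signals from 7.30 to 8.11.

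The mitotic class, made up mostly of dim genes, had a median difference of 0.13 between replicate 3 and the mean of replicates 1 and 2, and this median rests mostly on values below background. Of its 12 genes below background on every array, 7 were highest in replicate 3, against the 36% of all such genes given above. CYCA1-4, the bright member, was lower in replicate 3 by 0.11 on the log2 scale (difference -0.11). With 1 array for each replicate these differences have no test. Among the 8 CDKC to CDKG kinases all above background, 7 were lowest in replicate 3, against the 60.1% of all genes above background given above. Their median difference was -0.17, and all genes with mean signals from 8.11 to 10.07, in 3 groups by signal, had medians of -0.15, -0.12 and -0.10.

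**Figure D5:**
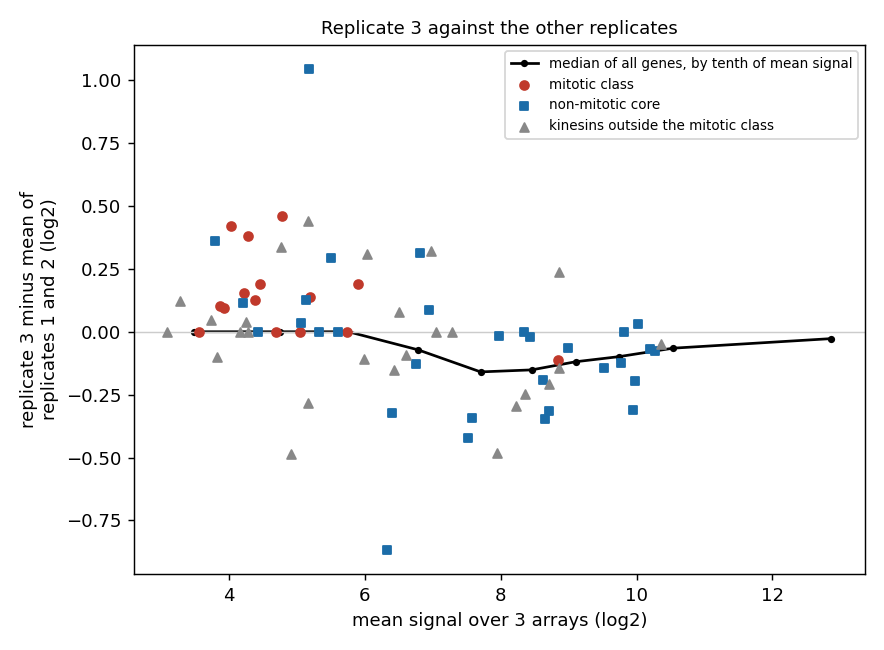
Replicate 3 minus the mean of replicates 1 and 2 (log2, vertical axis) against the mean signal over the 3 arrays (log2, horizontal axis), with 1 point for each gene, coloured by class; the black line joins the medians of all genes in 10 equal groups by mean signal. Mitotic-class genes lie at or above 0 except CYCA1-4, and the points farthest from the line are KRP6 (top) and CYCD4-2 (bottom), each with values below background.

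Positions in the gene order of the RefSeq table (assembly ASM3414082v1, which is not stated to be the build behind the arrays) were used for names of neighbours. CYCA1-4, above background, is separated from the helicase gene MCM6 by 3 protein-coding genes, and MCM6 was below background at 3.19 ± 0.07. KIN14L and CYCD3-1, both above background, are separated by 1 protein-coding gene.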

How the data were processed

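Total RNA was labelled with biotin and hybridised to Affymetrix rice arrays, per the labels' protocols. The authors deposited log2 values, 1 for each probe set and array, and RMA is the tool named in the submitters' processing notes. Its version and settings: not given in the sources used here. Members, classes and gene lists were chosen with earlier results of these data known. A gene with several probe sets took the one without an _x_at or _s_at suffix and with the highest mean. Controls and reporters (187 of 57381 probe sets) stayed out of the gene values. Named genes are the mitotic members above background, the brightest and most variable gene of each other family, the 10 widest ranges and the same for 4 and 4 partner genes. Other members are named to account for the lists. KIN17 was set apart from the kinesins by its name, a departure from the design. Promoter and protein motifs were not searched, since no sequences were used here. With 1 group no test was possible. Values were compared with the reporter bound and with all 17905 genes. Counts and medians were tested on simulated data. Alternatives changed the bound, probe set, normalization, class borders and replicates. Python 3.11.15, numpy 2.4.6, pandas 2.3.3 and matplotlib 3.10.9 were used.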

Additional observations from a re-analysis of the deposited data

How the results depend on the processing

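The mitotic count of 2 of 15 genes became 1 with the bound at the highest reporter, 1 of 12 with A-type cyclins moved out, 1 of 8 without kinesins, and 17 of 41 with all kinesins put in; over single replicates left out it ran from 2 to 3. The non-mitotic count ran from 20 to 22 of 31 over the changes of bound, probe set, normalization and replicates, and was 23 when 1 array sufficed. The count of other kinesins ran from 10 (highest reporter) to 17 (brightest probe set) of 26, and was 16 of 27 with KIN17 counted, which was chosen after seeing the data. The 1 gene with a 2-fold range became 0 as a mean of probe sets and 0 among genes above background, and ran from 0 to 1 without single replicates: it was 0 without replicate 2 and 0 without replicate 3. The non-mitotic median difference in replicate 3 went from -0.02 to -0.12 among genes above background. The other 93 of 102 class values stayed within 1.5 times the count or 1 SD, as did 206 of 216 gene values within 1 SD. As a mean of probe sets CDKE-1, CDKG-1, CDKG-2, CYCD5-2, CDKA-2 and KIN8B had 7.39, 6.96, 8.39, 6.20, 7.09 and 4.67, and KIN1, KIN8B, CYCF2-2 and CYCH-1, with an SD of 0.00, moved by quantile normalization to 4.27, 3.08, 4.43 and 8.34. The partner count ran from 8 to 9. No paired analysis was possible because there is 1 group. Values below background give no level and, since probes differ in how strongly they bind, no upper limit.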
